A study of Mus musculus with 134 samples.

Results

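The cells proximal to a Wnt3a-coated bead were compared with their distal sisters in the RNA of H3K4me3 scSET-seq, a method that profiles a histone mark and the transcriptome of the same single cell. The cells were chosen by a rule on the number of genes with a read, more than 1000 and fewer than 5000, and their position was taken from the list of cells that accompanies the study. 210 of 368 cells passed, 107 proximal and 103 distal, out of 752 single cells of the series with H3K4me3 or H3K27me3. The cells just inside the limits had 1017 and 4930 genes, and those just outside had 1000 and 5142. The mark's genomic reads were not analysed here, so H3K4me3 names the antibody used on the nuclei and not a level measured below.

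Every cell came from mouse embryonic stem cells (mESCs) of the line labelled E14, ES-E14TG2a in the study's methods, which derive from the strain 129/Ola and were grown in serum with LIF. All cells, at both positions, had been cultured with the beads for 12 h, so that no untreated cell entered the comparison. A pair of daughter cells at a bead was separated by hand, with the cell next to the bead called proximal and its sister distal. The nucleus of each cell was tagmented with a transposase bound to the antibody against H3K4me3, and the RNA of the cytoplasm was reverse transcribed and tagmented as an RNA/cDNA hybrid.

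Wnt3a binds Frizzled receptors with Lrp5 or Lrp6, which keeps β-catenin from being degraded and lets it act on Tcf and Lef factors in the nucleus. In mESCs this relieves repression by Tcf7l1 of genes of the naive state, such as Nanog, Esrrb and Klf2, and it induces feedback genes such as Axin2, Nkd1, Znrf3 and Notum. H3K4me3 is found at the promoters of active genes, and in mESCs it also lies together with H3K27me3 at silent developmental genes. The comparison asked whether naive, Wnt target or differentiation genes, or groups of them, had different RNA levels in the 2 sisters.

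Each well of a plate had its own pair of indexed transposase adapters, and the index of the I7 adapter named the plate column. These adapters are shown because position followed them: of the wells in odd columns 184 were proximal and 0 distal, and the even columns held the distal cells. The adapters of 57 bases differed in bases 16 to 23, in capitals, as given in the study's list of oligonucleotides.
I7 1 (proximal): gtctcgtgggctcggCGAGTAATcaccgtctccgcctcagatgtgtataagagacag
I7 2 (distal): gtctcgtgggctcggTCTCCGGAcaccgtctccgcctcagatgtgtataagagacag
I7 3 (proximal): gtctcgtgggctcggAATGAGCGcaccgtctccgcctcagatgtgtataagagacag
I7 6 (distal): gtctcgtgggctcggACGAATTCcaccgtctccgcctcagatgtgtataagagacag
In every experiment an effect of position and an effect of the column or its adapter cannot be told apart.

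Experiments 1 to 6 gave 3, 16, 30, 24, 23 and 11 proximal and 1, 18, 27, 23, 23 and 11 distal cells that passed. Experiment 1 had fewer than 3 distal cells and was left out of sums and tests, which left 104 proximal and 102 distal cells in 5 experiments and 94 pairs in which both sisters passed. The summed reads on genes in experiments 2 to 6 were 5596719, 5937910, 1756883, 2219260 and 1169094 for proximal and 4806807, 5310639, 1215899, 2060181 and 1211968 for distal cells. The share of cells that passed was higher in proximal cells by 2.08 percentage points on average over 6 experiments (SD 5.47, exact sign-flip permutation test, two-sided p = 0.5), a difference within the spread between experiments.

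The difference in genes per cell between proximal and distal cells lay within the spread between experiments. The median number of genes per passing cell was 1581.5, 2109, 1812.5, 2584 and 4400 in proximal and 1557, 2146, 1443, 2938 and 4166 in distal cells of experiments 2 to 6. The mean difference was 47.4 genes (SD 277, n = 5 experiments, exact two-sided p = 0.75), where 5 experiments cannot give a p below 0.0625. With each cell thinned to 20000 reads the medians were 813, 692.5, 1104, 1468 and 2143 genes in proximal and 762.5, 720, 1065, 1614 and 1994 in distal cells, with a mean difference of 13 (SD 109, exact p = 0.6875). The log2 ratio of median reads per cell was 0.13 on average (SD 0.16, exact p = 0.1875). Experiments differed from each other far more than positions did, as the plot of genes and reads per cell shows.

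**Figure D1:**
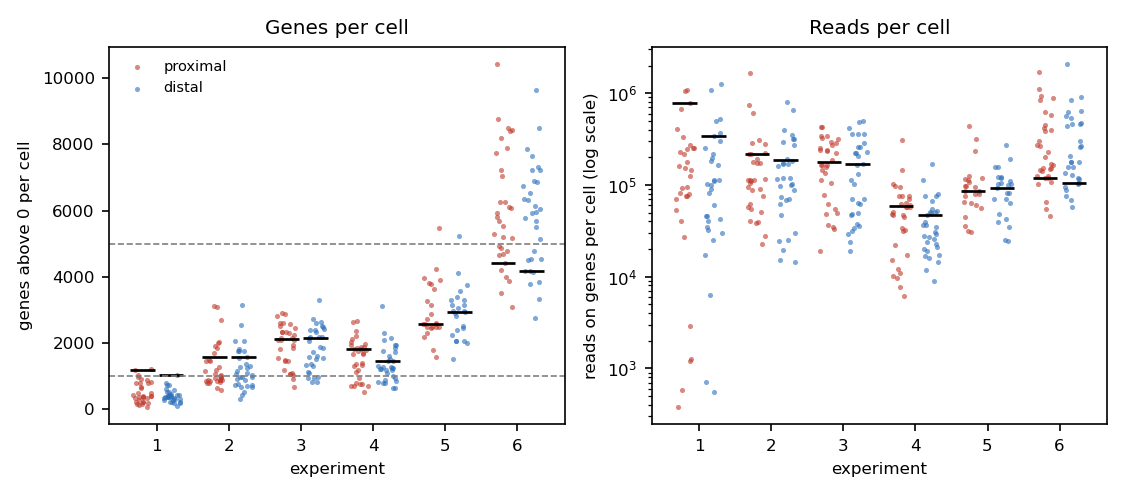
Genes with a read per cell (left) and reads on genes per cell on a log scale (right) in the 6 experiments, with a point for each proximal (red) or distal (blue) cell. Dashed lines mark the limits of 1000 and 5000 genes, and black bars are medians of the cells that passed; medians of genes lie between 1443 and 4400 in experiments 2 to 6, with the positions of an experiment close to each other.

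The cells carried the RNA of mESCs. Of 9 ES cell markers, 8 were found and all 8 had reads, with a summed level of 364 to 3213 CPM (reads on the gene per 1000000 reads of the sum) in the proximal and 359 to 3228 in the distal sums, and 99.5% of cells had a read of at least 1 of them. Markers of several other cell types were low. The 5 fibroblast markers in the table summed to 0.337 to 170.8 CPM in proximal and 1.13 to 22.3 CPM in distal cells, with Fap at 0, and 5 primitive endoderm markers to 0.357 to 2.69 CPM in proximal and 0.822 to 49.3 CPM in distal cells. Mesendoderm markers had no read in the proximal sums and at most 2.43 CPM in the distal ones, with Mixl1 at 0. The 3 neuroectoderm markers in the table summed to at most 44.1 CPM in proximal and 0.971 CPM in distal cells. Of the 4 trophoblast markers the sums reached 112 CPM in proximal and 9.08 CPM in distal cells. The 4 markers of the 2-cell-like state, which a few cells of an mESC culture enter, were higher, with 12.0 to 766 CPM in proximal and 0 to 353 CPM in distal sums, a read in 44.2% of cells and the higher sum in proximal cells in 4 of 5 experiments. Their part in the results below was not tested. The proximal sum was also the higher one in 4 of 5 experiments for the neuroectoderm and the trophoblast markers. It was higher in 3 for the fibroblast and in 1 for the primitive endoderm markers. Sox2 and T were not analysed here.

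Cells of different experiments were not independent of each other. The same plate layout was used in each experiment, so that the 206 cells had 64 well barcodes, of which 62 occurred in more than 1 experiment. In experiments 2 to 5, 178 of 184 cells had a barcode that another of these experiments used too, and 23 barcodes occurred in all 4. Pearson's r of log2(CPM + 1) over 9859 genes with reads in at least 10 cells was on average 0.333 to 0.494 between cells of the same barcode in 2 of these experiments, and 0.207 to 0.300 between cells of different barcodes. The difference was positive in all 6 pairs of experiments, from 0.0414 for experiments 3 and 5 to 0.204 for experiments 2 and 4. Between experiment 6 and the others it was 0.00409 to 0.0663. These correlations are across genes, and all cells of an experiment share its library, depth and most abundant genes.

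**Figure D2:**
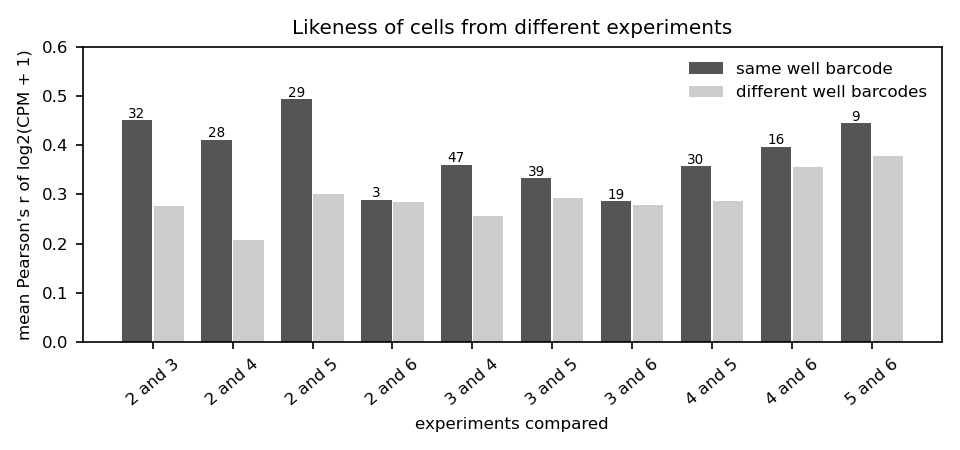
Mean Pearson's r of log2(CPM + 1) between cells of 2 different experiments, for cells with the same well barcode (dark bars, with the number of cell pairs above) and with different well barcodes (light bars). The dark bar is higher in all 6 pairs of experiments 2 to 5, for example 0.494 against 0.300 for experiments 2 and 5, and the bars are nearly equal for experiments 2 and 6.

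For some genes, most reads of a position came from the same well in several experiments. Bod1l, which encodes a protein that protects stalled replication forks (chromosome 5 from 42178781 to 42235407, minus strand, in NCBIM37, the build called mm9), had 0.715, 76.5, 2.28, 3.60 and 18.0 CPM in the proximal sums of experiments 2 to 6 and 160.4, 189.6, 77.3, 210.2 and 177 CPM in the distal ones. The groups did not overlap. Bod1l was chosen for the same direction in every experiment, and the share of all genes without overlap was not computed. In experiments 2, 3, 4 and 5, however, 771, 971, 76 and 426 reads of Bod1l came from the distal cell of well H6. The same well gave 126, 388, 48 and 77 reads of Mboat2, a lysophospholipid acyltransferase, or 86.4% of the reads of that gene over all cells. Well D6 gave 287, 136, 27 and 108 reads of Col4a4, a chain of basement membrane collagen, 88.6% of its reads. The barcodes of these wells are shown as the deposited table names its cells, with the bases in capitals shared by the cells of a plate column.
H6 (distal): gtactgacACGAATTC
D6 (distal): ggctctgaACGAATTC
Well A3 held 389 reads of Wdr62, a centrosome protein, in experiment 2 and 91 in experiment 5.

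**Figure D3:**
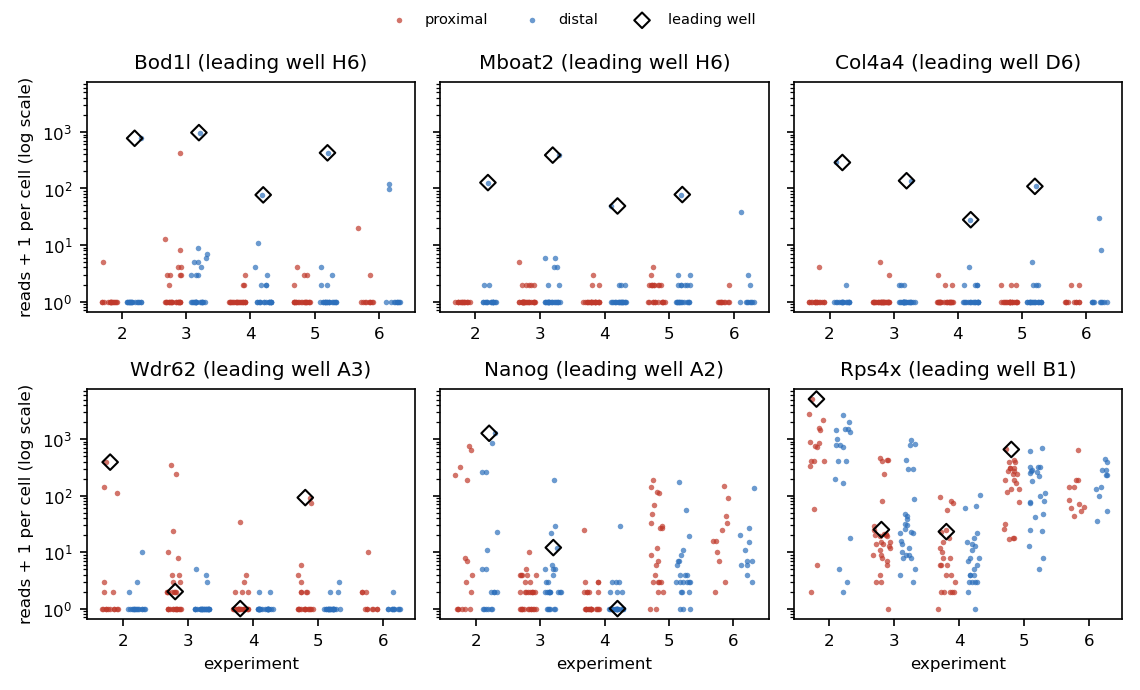
Reads + 1 per cell on a log scale for 6 genes in experiments 2 to 6, with a point for each proximal (red) or distal (blue) cell. Open diamonds mark the well with the most reads of the gene over all experiments; for Bod1l, Mboat2 and Col4a4 it is the same distal well that leads in experiments 2, 3, 4 and 5, while the reads of Rps4x are spread over nearly all cells.

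How the reads of a well came to resemble those of the same well in another experiment was not tested. Agreement between experiments 2 to 5 is therefore not independent evidence for an effect of position. The counts of calls, the medians of several lists and the values of some genes are also given for a smaller set of pairs. There, each barcode of experiments 2 to 5 was kept in only 1 of them, and all complete pairs of experiment 6 were kept. Barcodes of experiment 6 thus recurred in the others. This set is called each barcode in 1 experiment below. It held 82 cells, in 7, 9, 8, 8 and 9 pairs in experiments 2 to 6, and was added after the data were seen. The log2 ratios of proximal over distal had r = 0.325 between experiments 2 and 5, the highest of the 10 pairs of experiments, over the 4734 genes tested, and the mean over the pairs was 0.0744. For experiments 2 and 5 it was −0.0158 over 2474 genes with each barcode in 1 experiment, where the mean over the pairs was 0.0135. Genes with the same direction in all 5 experiments made up 9.57% of 4734 genes in all cells and 5.70% of 2474 with each barcode in 1 experiment. Some genes share a direction by chance, and that share was not computed. The 2 sets also differed in the number of cells and in the genes tested. The part of shared barcodes in these differences was not tested.

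Reads were concentrated in few cells and few genes, which bounds what sums can show. In a sum of a position, the cell with the most reads of a gene held 49.8% to 76.1% of them for the median gene. The 10 genes with the most reads took 21.5% to 72.4% of the reads of a sum. Brpf3, a bromodomain protein of histone acetyltransferase complexes, took up to 36.0% and more than 1% in 4 sums, and the ribosomal RNA precursor Rn45s 2.31% to 17.2%. The share of Rn45s was 16.3, 4.26, 2.33, 17.2 and 13.8% in proximal and 9.59, 5.54, 2.31, 15.2 and 14.0% in distal sums of experiments 2 to 6. It was higher in the proximal sum in experiment 2 and close to equal in experiments 4 and 6. The median gene tested had a read in 60 of 206 cells, and 945 genes in over 50% of cells.

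No gene passed the edgeR test between proximal and distal cells. Of 4734 genes tested with edgeR's quasi-likelihood test on the sums, with the experiment as a block, 0 (0%) had an adjusted p (Benjamini-Hochberg) below 0.05, and the smallest adjusted p was 0.896. At an unadjusted p below 0.05 there were 235 genes (4.96%), 110 higher in proximal cells (2.32%) and 125 higher in distal cells (2.64%). limma on mean log2(CPM + 1) per cell called 0 genes. It had 484 (10.2%) at an unadjusted p below 0.05, 311 higher and 173 lower in proximal cells. The Wald test of DESeq2 called 233 of 4734 genes, of which 103 were higher and 130 lower in proximal cells. It had 820 (17.3%) at an unadjusted p below 0.05. With each barcode in 1 experiment edgeR called 0 of 2474 genes, with 58 (2.34%) at an unadjusted p below 0.05. DESeq2 called 45 of 2474 there, with 282 (11.4%) at an unadjusted p below 0.05. Of the 233 genes of DESeq2, 71 could be tested in those cells, and 21 were called there.

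The test had little power for moderate changes. The fitted log2 fold changes (proximal over distal, so that positive values are higher in proximal cells) had a median of 0.0696 and a median standard error of 1.27. In simulated counts with the same means and library sizes, 2.5% of 200 genes changed 4-fold were recovered, 70% of those changed 16-fold and 97% of those changed 64-fold. The counts were drawn independently for each sum with the fitted dispersion of each gene. They thus lacked the likeness of cells with the same barcode. Differences of 4-fold in single genes were mostly not detectable in such counts, and changes between 4-fold and 16-fold were not simulated. Genes with a small standard error, such as Trim28 (SE 0.32), were measured more closely than the median gene. Likeness of cells was also compared within and between positions, for cells of an experiment that shared neither row nor column. Mean r was 0.285, 0.368, 0.484, 0.406 and 0.476 within a position and 0.295, 0.372, 0.506, 0.408 and 0.498 between positions in experiments 2 to 6. Since position followed the column, cells of the same position were never in adjacent columns, while those of opposite positions could be. These values therefore cannot decide whether position had an effect.

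The genes that kept a direction in every experiment are described next, none of them called. By the log2 ratio of CPM + 1, 183 genes (3.87%) were higher and 270 (5.7%) lower in proximal cells in all 5 experiments. The split depended on the scaling: with TMM factors, which raise the log2 ratios by 0.19 on average and by −0.0245 to 0.31 in single experiments, 257 (5.43%) were higher and 187 (3.95%) lower. The 20 genes with the smallest p among the first set kept their direction under both scalings. Since they were chosen for that direction, it is a description and not a result. How many genes would share a direction by chance was not computed.

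Among the 10 genes higher in proximal cells, Wdr62 (chromosome 7 from 31025157 to 31065438, minus strand) had the smallest p. It had 114, 109, 23.3, 80.2 and 10.3 CPM in proximal and 2.50, 1.69, 1.64, 1.94 and 0.825 CPM in distal sums, with a log2 fold change of 5.15 (SE 1.09, 95% interval 2.79 to 7.51, adjusted p = 0.896) by edgeR. The lowest proximal sum was above the highest distal one, in a gene chosen for its direction in every experiment. Tnpo1, a nuclear import receptor, had 67.7, 57.3, 1.71, 28.4 and 105 CPM in proximal and 1.87, 1.51, 0, 3.40 and 8.25 CPM in distal sums, which overlapped, since experiment 4 had next to no reads. Swt1, an endoribonuclease of RNA surveillance, had 62.0, 115, 1.14, 58.1 and 93.2 CPM in proximal and 0.208, 1.88, 0, 0 and 14.0 CPM in distal sums. The other 7 were 0610010K14Rik, Nudt19, Stk40, Zdhhc3, Seh1l, Fem1b and Clec16a, with log2 fold changes of 3.96 to 6.19.

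Among the 10 genes lower in proximal cells, Cbx5 and Yif1a were called by DESeq2 but not by edgeR. Cbx5 encodes heterochromatin protein 1α (chromosome 15 from 103021975 to 103070247, minus strand). It had 53.8, 4.21, 1.14, 73.0 and 19.7 CPM in proximal and 445, 139, 9.05, 275 and 118 CPM in distal sums, a log2 fold change of −2.91 (SE 0.80, 95% interval −4.62 to −1.20, adjusted p = 0.896), and reads in 32.7% of proximal and 57.8% of distal cells. Within each experiment the distal sum was higher, while the groups overlapped across experiments. Yif1a, a protein of transport from the endoplasmic reticulum to the Golgi, had 59.5, 1.68, 2.28, 21.2 and 15.4 CPM in proximal and 342, 55.5, 38.7, 154 and 109.7 CPM in distal sums. DESeq2 called both genes in all cells and with each barcode in 1 experiment, while edgeR called them in neither and limma did not call them in all cells. Ndufb10, a subunit of respiratory complex I, had 1.07, 1.35, 1.14, 25.7 and 21.4 CPM in proximal and 556, 15.1, 41.9, 173 and 245 CPM in distal sums. The others were Bod1l, Col4a4, Cers5, Mboat2, Dap, Mknk1 and Eps8. Of the 20 genes, 9 had their most reads in the same well in at least 2 of experiments 2 to 5, against 27.4% of all genes tested, and 4 in at least 3, against 1.61%. A leading well was counted where it had at least 20 reads of the gene. A well keeps its position, so choosing genes for a shared direction itself favors genes led by 1 well. These shares therefore cannot show why the 20 genes kept their direction.

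Nanog, a transcription factor of the naive state, had a difference between positions that lay within the spread between experiments. Nanog (chromosome 6 from 122657507 to 122664651, plus strand) had 2162, 41, 35, 820 and 383 reads in the proximal sums of experiments 2 to 6 and 2680, 283, 37, 302 and 230 in the distal ones. These were 386, 6.90, 19.9, 369 and 328 CPM in proximal and 558, 53.3, 30.4, 147 and 189.8 CPM in distal cells. Distal sums were higher in experiments 2, 3 and 4 and proximal sums in experiments 5 and 6, and the groups overlapped. The log2 fold change was −0.15 (SE 0.72, 95% interval −1.70 to 1.40, adjusted p = 0.997). A read of Nanog was found in 69 of 104 proximal cells (66.3%) and in 71 of 102 distal cells (69.6%). Among the 94 pairs of sisters, the CPM was higher in the proximal cell in 37 and in the distal cell in 40, and 17 pairs had no read. With each barcode in 1 experiment the log2 fold change by edgeR was −0.44 for Nanog.

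Of the 13 core pluripotency factors tested, 0 were called, 5 had a positive and 8 a negative log2 fold change, and their median was −0.33, where all genes tested had 0.0696. By limma the median was 0.0956. Pou5f1, which encodes Oct4, was sparse, with 44.3, 0.842, 0.569, 72.1 and 19.7 CPM in proximal and 0.416, 3.58, 6.58, 54.8 and 125 CPM in distal sums and a log2 fold change of −0.82 (SE 1.71, 95% interval −4.51 to 2.87, adjusted p = 0.983). Trim28, a corepressor with reads in 103 proximal and 101 distal cells, was measured well and had a log2 fold change of 0.0120 (SE 0.32). The summed CPM of the list was 3684, 1127, 450.2, 3256 and 2917 in proximal and 3694, 1456, 603, 3877 and 3012 in distal sums. The log2 ratio of this sum was −0.22 ± 0.19 (SD, n = 5 experiments), below 0 in 5 of 5, but with TMM factors it was −0.0293 ± 0.15 and below 0 in 4 of 5.

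Of the 16 naive pluripotency genes tested, 0 were called and 8 had a log2 fold change on either side of 0, with a median of 0.0186, or −0.36 to 0.11 with an experiment left out. Zfp42, known as Rex1 and a marker of the naive state, had 498, 58.6, 12.5, 192 and 421 CPM in proximal and 468, 113, 13.2, 125 and 60.2 CPM in distal sums, with log2 ratios of 0.0903, −0.93, −0.0664, 0.62 and 2.78. Its largest difference was in experiment 6, and the log2 fold change was 0.64 (SE 0.65, 95% interval −0.77 to 2.05, adjusted p = 0.951). Esrrb, an orphan nuclear receptor repressed by Tcf7l1, had 428, 289, 53.5, 188 and 49.6 CPM in proximal and 346, 216, 16.4, 324 and 242 CPM in distal sums and a log2 fold change of 0.0833 (SE 0.66, 95% interval −1.33 to 1.50, adjusted p = 0.997). Klf4, a Krüppel-like factor, changed sides between experiments, with log2 ratios of 2.75, −4.97, −1.78, 1.43 and −1.53. With each barcode in 1 experiment the log2 fold change was 1.70 for Zfp42, 0.41 for Esrrb and −1.68 for Klf4. None of these genes had groups that stood apart.

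Tbx3, a T-box factor that sustains self-renewal, was the gene with the smallest p among the pluripotency, Wnt and PRC2 genes that are always named. It had 38, 11, 1, 16 and 3 reads in proximal and 758, 233, 4, 67 and 8 reads in distal sums, or 6.79, 1.85, 0.569, 7.21 and 2.57 and 158, 43.9, 3.29, 32.5 and 6.60 CPM. The distal sum was higher in 5 of 5 experiments, under both scalings, although experiments 4 and 6 had at most 8 reads. The log2 fold change by edgeR was −2.91 (SE 1.27, 95% interval −5.65 to −0.17, adjusted p = 0.940), with an unadjusted p of 0.039, so Tbx3 did not pass the test. It did not pass the filter on low counts with each barcode in 1 experiment. Reads were found in 14 of 104 proximal and 26 of 102 distal cells. On the other side were Rex2, a zinc finger gene of pluripotent cells, with a log2 fold change of 2.66 (SE 1.13) and reads in 58 proximal and 38 distal cells, and Spp1, the secreted protein osteopontin, with 1.51 (SE 0.80) and 53 and 38 cells. Both were higher in proximal cells in 5 of 5 experiments, neither was called (adjusted p = 0.940 for each by edgeR), and they were picked from the list after their values were seen.

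The Wnt target genes were mostly too rare for a test. Of 17 feedback and target genes in the table, 3 passed the filter on low counts. Axin2, the feedback inhibitor that is the usual readout of the pathway (chromosome 11 from 108781663 to 108812097, plus strand), had 0, 0, 0, 42 and 0 reads in the proximal and 0, 1, 0, 4 and 1 in the distal sums, from 2 proximal and 4 distal cells. At this depth no difference in Axin2 was detectable. Nkd1, an inhibitor of Dishevelled, had a log2 fold change of −1.24 (SE 1.53), Znrf3, a ubiquitin ligase that removes Frizzled, of −1.01 (SE 1.14), and Ccnd1, which encodes cyclin D1, of 2.01 (SE 2.45). Znrf3 had 362, 3, 1, 90 and 2 reads in proximal and 474, 18, 1, 108 and 7 in distal sums, so that experiments 3, 4 and 6 had few (adjusted p = 0.955 by edgeR). Notum, an enzyme that inactivates Wnt proteins, was higher in proximal sums in 5 of 5 experiments with 408 reads from 10 proximal and 3 distal cells. It did not pass the filter and is named here after its value was seen. Other genes that did not pass the filter lay on both sides. Rnf43 had reads in 0 proximal and 9 distal cells, and Kremen1 was lower in proximal sums in 4 of 5 experiments. Cdx1 was higher in proximal sums in 4 of 5.

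The median log2 fold change of the 3 feedback and target genes was −1.01. The summed CPM of the list was 242, 15.5, 45.5, 236 and 85.5 in proximal and 188, 74.6, 80.6, 261 and 152 in distal sums. It was higher in proximal cells in experiment 2 and lower in the other 4, with a log2 ratio of −0.72 ± 0.96 (SD, n = 5), less than the spread between experiments. None of the tested genes of the list was called.

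The machinery of the pathway was measured better, with 12 of 37 genes tested, 0 called and a median of −0.15, or −0.36 to 0.36 with an experiment left out. Ctnnb1, which encodes β-catenin, had 444, 50.7, 42.1, 210.0 and 271 CPM in proximal and 381, 170.0, 8.22, 201 and 106 CPM in distal sums and a log2 fold change of 0.61 (SE 0.68, 95% interval −0.87 to 2.08, adjusted p = 0.955). Tcf7l1, the repressor that β-catenin displaces, had 87.0, 5.56, 7.40, 41.0 and 88.1 CPM in proximal and 134, 11.7, 11.5, 113 and 42.9 CPM in distal sums and a log2 fold change of −0.38 (SE 0.99, 95% interval −2.52 to 1.76, adjusted p = 0.984). Both had groups that overlapped. Of the receptors, Lrp6 had a log2 fold change of −0.99 (SE 1.02) and Fzd5 of −0.18 (SE 1.08). Among the members of the destruction complex, Apc had 0.65 (SE 1.61), Axin1 −2.01 (SE 1.97) and Gsk3b −0.12 (SE 1.20). Gsk3a, the other glycogen synthase kinase, was higher in proximal cells in 5 of 5 experiments with 4.05 (SE 1.45), reads in 25 proximal and 11 distal cells and an unadjusted p of 0.015, but an adjusted p of 0.940 by edgeR, and it is named here after its value was seen.

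**Figure D4:**
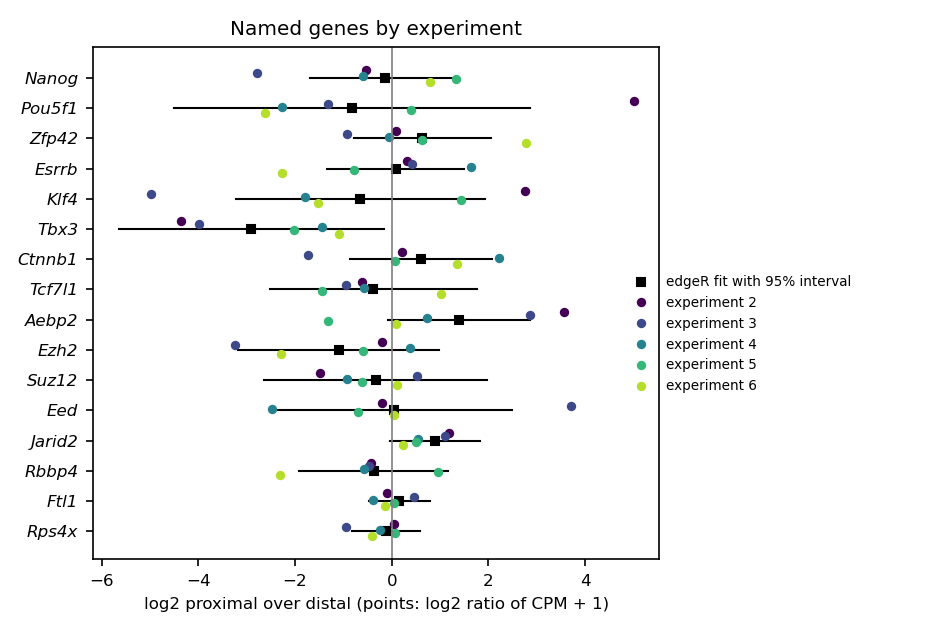
Log2 of proximal over distal for 16 named genes, with a colored point for the log2 ratio of CPM + 1 in each of experiments 2 to 6 and a black square with a line for the edgeR estimate and its 95% interval. All intervals but that of Tbx3 (−5.65 to −0.17, not called after adjustment) include 0, and those of Rps4x and Ftl1 are the narrowest.

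No gene of later states passed the test. Of 19 primed epiblast genes in the table, 6 were tested, 0 were called and the median log2 fold change was −0.32. Etv5, an ETS factor downstream of FGF signaling, had a log2 fold change of −1.02 (SE 0.56) and was lower in proximal sums in 5 of 5 experiments (adjusted p = 0.940 by edgeR), and Nodal had −0.59 (SE 0.93) and Cdh2, N-cadherin, −0.0469 (SE 0.38). The summed CPM of the list was 651, 85.4, 153, 598 and 1357 in proximal and 992, 167, 254, 851 and 1376 in distal sums. Its log2 ratio was −0.57 ± 0.35 (SD, n = 5) and below 0 in 5 of 5 experiments, also with TMM factors (−0.38 ± 0.22). The median over the 3 genes that could still be tested was −0.0344 with each barcode in 1 experiment, and −1.25 with the reads of a gene and barcode kept only in the experiment with most. Otx2 had 1 read and Fgf5 3 reads, so early markers of the primed state were not measurable.

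Few genes of differentiated lineages could be tested, 4 of 18 for primitive endoderm with a median of −0.53 and 4 of 28 for the germ layers with a median of −0.22, and 0 were called. The germ layer median was on either side of 0 with an experiment left out, from −0.73 to 0.83, the highest without experiment 4. Of the targets of LIF with STAT3 and of BMP with Id genes, 4 of 18 were tested, and all 4 had a negative log2 fold change, with a median of −0.74 and 0 called. That median was 0.0164 without experiment 5, −1.90 without experiment 6 and −0.13 over all 18 genes without the filter, so its direction depended on single experiments and few genes. The 5 genes tested of the 2-cell-like state had a median of 0.70, with log2 ratios of the sum of 0.69, 2.27, 1.72, −0.86 and 0.53.

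The subunits of PRC2, the complex that deposits H3K27me3, were followed because the study examined Aebp2. Of 11 genes found 9 were tested, 0 were called and the median log2 fold change was 0.0236, or −0.42 to 0.50 with an experiment left out. Aebp2, a DNA-binding accessory subunit (chromosome 6 from 140570970 to 140626993, plus strand), had 378, 321, 14441, 91 and 8141 reads in proximal and 23, 35, 6008, 214 and 7987 in distal sums. Nearly all its reads came from experiments 4 and 6, at both positions, where it had 8219.7 and 6964 CPM in proximal and 4941 and 6590.1 CPM in distal cells, against 4.78 to 104 CPM in the other sums. The log2 fold change of Aebp2 was 1.39 (SE 0.68, 95% interval −0.0861 to 2.87, adjusted p = 0.940), with an unadjusted p of 0.0629. The proximal sum of Aebp2 was higher in 4 of 5 experiments and lower in experiment 5. How its variation divided between experiment and position was not tested. Cracr2a, a calcium sensor and among the genes the study used to mark clusters, also had nearly all its reads in experiments 4 and 6. It had 1, 9, 40109, 0 and 11904 reads in proximal and 0, 0, 32034, 2 and 11953 in distal sums.

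Jarid2, the accessory subunit that recruits PRC2, was the best measured of these genes, with reads in 90 of 104 proximal and 80 of 102 distal cells. Jarid2 (chromosome 13 from 44824843 to 45017012, plus strand) had 8513, 611, 93, 1841 and 992 reads in proximal and 3233, 252, 44, 1203 and 870 in distal sums, or 1521, 103, 52.9, 829.6 and 849 and 673, 47.5, 36.2, 584 and 718 CPM. The proximal sum was higher in 5 of 5 experiments, by log2 ratios of 1.18, 1.10, 0.54, 0.51 and 0.24, and also with TMM factors. The log2 fold change was 0.90 (SE 0.43, 95% interval −0.0365 to 1.83, adjusted p = 0.940) and the unadjusted p 0.0583, so that it did not pass the test. The core subunits had log2 fold changes of −1.10 (SE 0.96) for Ezh2, the methyltransferase, 0.0453 (SE 1.14) for Eed, −0.33 (SE 1.07) for Suz12 and −0.37 (SE 0.72) for Rbbp4. The summed CPM of the list was higher in proximal cells in 5 of 5 experiments (0.34 ± 0.29, SD), and this sum was mostly Aebp2 in experiments 4 and 6. With each barcode in 1 experiment the median of the list was −0.60, and the log2 fold change was 0.50 for Jarid2 and 0.31 for Aebp2.

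The enzymes that write and remove methylation of H3K4 had a median log2 fold change of 0.46 over 12 genes tested of 19, with 7 positive, 5 negative and 0 called. It was 0.12 without experiment 2 and −0.29 over 7 genes in thinned cells. The log2 ratios of their summed CPM were 0.21, 0.18, −0.46, 0.0387 and −0.37 in experiments 2 to 6, on both sides of 0.

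The abundant housekeeping groups gave the tightest comparison. Of 79 ribosomal protein genes 77 were tested, 0 were called, and 43 had a positive and 34 a negative log2 fold change, with a median of 0.0301 and quartiles of −0.13 and 0.25. Rps4x, a protein of the small ribosomal subunit with reads in 98.1% of proximal and 99.0% of distal cells, had 3203, 390.4, 249, 2201 and 1425 CPM in proximal and 3094, 758, 296, 2097 and 1900.2 CPM in distal sums. Its log2 fold change of −0.12 (SE 0.33, 95% interval −0.83 to 0.59, adjusted p = 0.986) had the narrow interval of a gene found in nearly all cells. The summed CPM of the group was 117551, 30761, 16365, 120799 and 95826 in proximal and 147862, 35249, 16765, 132254 and 102769 in distal sums. It was lower in proximal cells in 5 of 5 experiments, by −0.16 ± 0.11 (log2, SD), but with TMM factors in 3 of 5, with a mean of 0.0303 ± 0.16, so its direction rested on the scaling and differed from that of the median. With cells thinned to 20000 reads, a proximal cell had reads of 61.9 and a distal cell of 61.8 of these genes on average.

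Genes of the respiratory chain (73 tested, median 0.0690), of the proteasome (33 tested, median 0.17) and of glycolysis (15 tested, median 0.21) had no gene called. The medians were −0.0782, 0.55 and −0.30 with each barcode in 1 experiment. The log2 ratio of the summed CPM was −0.11 ± 0.11 for the respiratory chain, 0.0831 ± 0.11 for the proteasome and 0.0271 ± 0.0876 for glycolysis (SD, n = 5). With TMM factors these were 0.0769 ± 0.10, 0.27 ± 0.14 and 0.22 ± 0.19, of which the respiratory chain changed sign. In thinned cells, proximal cells had reads of 11.4 proteasome genes and distal cells of 10.4, higher in proximal cells in 5 of 5 experiments and by 1.05 genes on average (SD 1.07). Ftl1, the light chain of ferritin and a marker of the study for a cluster, had reads in every cell used and 4602, 2010.1, 579, 4846 and 3020.3 CPM in proximal and 4889.9, 1454, 757, 4688 and 3323 CPM in distal sums, with a log2 fold change of 0.16 (SE 0.29, 95% interval −0.47 to 0.79, adjusted p = 0.982).

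Genes of the cell cycle were divided in direction. Of 52 G2/M genes 46 were tested, with 22 positive, 24 negative, 0 called and a median of −0.0989, and of 41 G1/S genes 29 were tested, with 14 positive, 15 negative, 0 called and a median of −0.0663. At an unadjusted p below 0.05, 2 G2/M genes were higher and 4 lower in proximal cells, or 6 of 46 where all genes tested had 4.96%, and 0 G1/S genes passed. With an experiment left out, the median ranged from −0.21 to 0.0761 for the G2/M genes and from −0.16 to 0.34 for the G1/S genes. Stress and immediate early genes, which can respond to handling, had a median of −0.0293 over 9 genes tested, and of 0.40 over 7 with each barcode in 1 experiment.

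**Figure D5:**
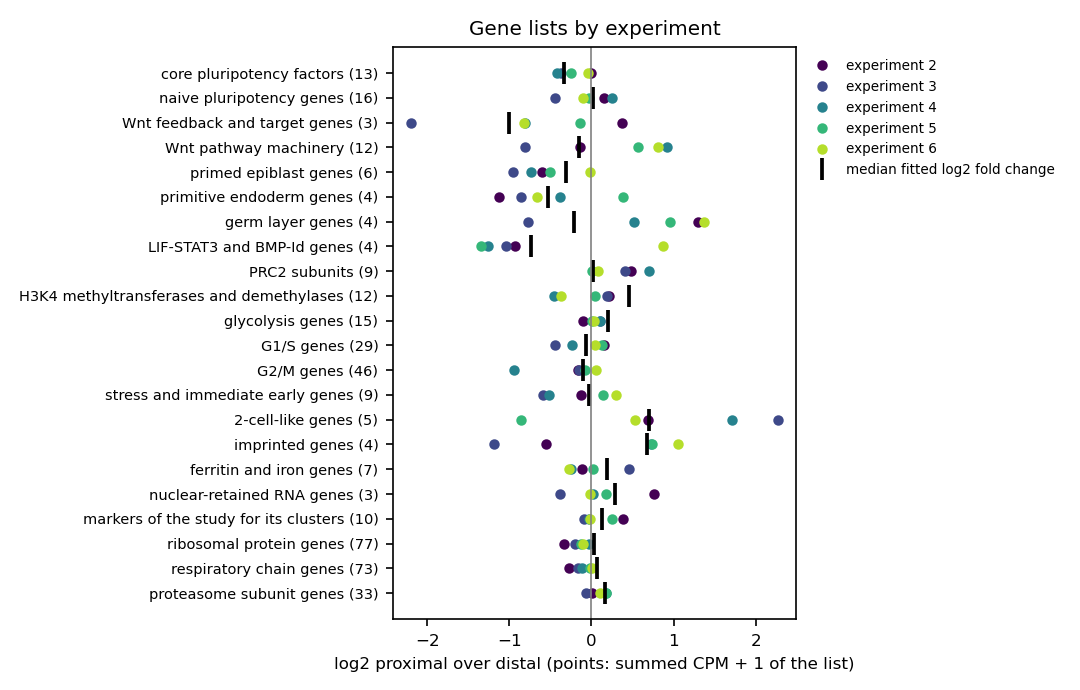
Log2 of proximal over distal for the gene lists with at least 3 genes tested (number in parentheses), with a colored point for the summed CPM + 1 of the list in each of experiments 2 to 6 and a black tick for the median of the fitted log2 fold changes. Large lists such as the ribosomal protein genes lie near 0 (−0.33 to −0.0349 for the sums), and small lists of rare genes spread widely.

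No gene was called for an effect of position that differed between cells stained for H3K4me3 and for H3K27me3. A model of both marks with 9929 genes tested called 0 (0%) for the interaction of position and mark, with 605 (6.09%) at an unadjusted p below 0.05, 293 (2.95%) with a higher and 312 (3.14%) with a lower ratio in H3K4me3 cells. In the H3K27me3 cells alone, 0 of 3705 genes (0%) were called by edgeR, with 112 (3.02%) at an unadjusted p below 0.05, of which 82 (2.21%) were higher and 30 (0.81%) lower in proximal cells. For Nanog the interaction on the log2 scale was 0.83 (SE 1.17, adjusted p = 0.990), for Tbx3 −2.07 (SE 1.81, adjusted p = 0.942) and for Jarid2 0.92 (SE 0.99, adjusted p = 0.964), as H3K4me3 minus H3K27me3 by edgeR. Over the 2526 genes tested in both marks, 52.6% had the same sign, and the log2 fold changes had r = 0.0308 across genes, which are not independent replicates. Cells of both marks shared 80 well barcodes.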

How the data were processed

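Gene expression was measured in 368 single mESCs with the H3K4me3 antibody (210 used), and the 384 cells with H3K27me3 served only for the interaction. The table deposited by the authors holds read counts for each gene in each cell, not normalized and with no molecular identifiers, so 1 molecule can give many reads. The authors made them with zUMIs 2.7.1c, which counted reads on exons and introns after mapping to mm9 without mitochondria and random chromosomes. Each plate well has 1 barcode, matched to the list of cells of the study for position; pairs were read from neighboring wells of a row.

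Counts were summed per experiment and position over at least 3 cells, which gave 1169094 to 5937910 reads per sum, and tested with edgeR 4.0.16 (R 4.3.3; filterByExpr, TMM, quasi-likelihood, experiment as a block). Deviations of the 2 sums of an experiment had correlations of 0.260 to 0.599, and sisters of a bead share an experiment, so the block was used. CPM are reads per 1000000 reads of the sum, and ratios are of CPM + 1, with a pseudocount of 1. Lists are described by counts, medians and summed CPM, without a set test. For measures of cells, the signs of the differences between positions were permuted exactly over the experiments (two-sided).

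Genes named were those called; where fewer than 10 were called in a direction, up to 10 with the smallest p among those of the same sign in every experiment; a set of pluripotency, Wnt and PRC2 genes with the markers of the study for its clusters; and up to 4 members of a list with the highest level. The members and lists were chosen with earlier results of these data known. Alternatives were DESeq2 1.42.0 and its size factors, limma 3.58.1, no filter, no block, complete pairs, no upper limit of genes, 5 cells per sum, thinning to 20000 reads, no Rn45s and ribosomal protein genes, and each experiment left out. Each barcode in 1 experiment, reads of a gene and barcode kept only in the experiment with most of them, and library size without TMM were added after the data were seen. The test was run on simulated data with 200 changed genes. Experiments are the replicates; the labels do not say whether they are separate cultures, so p-values measure only the spread between them. Coordinates are from a gene annotation of NCBIM37. Calculations used matplotlib 3.10.9, pandas 2.3.3, scipy 1.17.1 and numpy 2.4.6 under Python 3.11.15. Genes absent from the table, such as Sox2, Stat3, Sp5 and Dkk1, were not analysed here.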

Additional observations from a re-analysis of the deposited data

Results flagged for a closer look

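In 2 of 68 sets of 5 experiments looked at (2.94%), 1 experiment stood apart from the other 4, where chance gives about 1 in 20 such sets. For the targets of LIF with STAT3 and of BMP with Id genes, the log2 ratio of summed CPM + 1 (proximal over distal) was 0.88 in experiment 6. It was −1.34 to −0.93 in experiments 2 to 5, whose agreement is not independent evidence. Experiment 6 shared well barcodes with each of them too. For the G2/M genes it was −0.95 in experiment 4, and −0.16 to 0.0505 in the other experiments.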

How the results depend on the processing

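edgeR called 0 genes under every alternative except without the filter on low counts, where it called 9 of 16041. DESeq2's Wald test called 233, or 45 with each barcode in 1 experiment, and the cause of the difference from edgeR was not tested. The interaction with the mark had 1 gene called without the filter and 0 under its other alternatives. Without the replicate block, which pairs the sums of an experiment, edgeR called 0 genes with 218 at an unadjusted p below 0.05, and it changed no call. Leaving out an experiment gave 189 to 327 genes at an unadjusted p below 0.05, the most without experiment 6. The difference in genes per cell ranged from −33.1 to 148 with an experiment left out, negative without experiment 4. The median of the ribosomal protein genes was −0.10 with each barcode in 1 experiment and 0.23 with reads kept only in the experiment with most. Of the 22 lists, 11 had a median that changed sign with an experiment left out. Of the medians of lists under alternatives, 372 moved by less than the spread between experiments and 41 by more.

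Log2 fold changes of named genes changed sign as follows, where none was called. With limma they were 0.29 for Nanog, 0.0422 for Pou5f1, −0.000561 for Esrrb, −0.0828 for Aebp2, 0.00911 for Ezh2, −0.52 for Eed, 0.0643 for Rbbp4 and −0.0567 for 4930438A08Rik. Without the block Nanog had 0.0947. In thinned cells Nanog had 0.21, Esrrb −0.0298, Eed −0.64 and 4930438A08Rik −0.16. Without the upper limit of genes Eed had −0.11 and Rbbp4 0.0194. With each barcode in 1 experiment Eed had −2.82, also by DESeq2, and Ywhae −0.00295. With reads kept only in the experiment with most, Nanog had 1.58, Zfp42 −0.11, Klf4 0.0861, Tcf7l1 0.38, Suz12 0.53, Eed −0.60, Peak1 −0.49 and Rpl37 0.63. 4930438A08Rik had −0.0332 with DESeq2's size factors and −0.0239 with its test. With each experiment left out, the values ranged from −0.64 to 0.41 for Nanog, −0.38 to 0.57 for Esrrb, −1.65 to 0.34 for Klf4, −0.68 to 0.68 for Eed, −0.81 to 0.0301 for Rbbp4, −0.0952 to 0.13 for 4930438A08Rik, −0.0597 to 0.15 for Rpl10a, −0.12 to 0.93 for Rnf7, −0.27 to 0.0260 for Rps4x and −0.59 to 0.0117 for Rpl37. The cause was not tested for any of these.

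Position and plate column could not be separated, the experiments shared barcodes, and single genes rested on few cells, which limits all comparisons to large differences.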

Other observations

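The genes that the study used as cluster markers differed among themselves. Of 12 found, 10 were tested, 0 were called by edgeR and the median log2 fold change was 0.12. Peak1, a kinase of the cytoskeleton, had reads in every cell used, with 15076, 4508, 1821, 21735 and 16994 CPM in proximal and 7578, 5014, 1803, 17622 and 16826 CPM in distal sums of experiments 2 to 6. Ndufb10, with a log2 fold change of −4.25 (SE 1.12, 95% interval −6.66 to −1.84, adjusted p = 0.896) and the distal sum higher in 5 of 5 experiments, was the marker with the smallest p, 0.00210 unadjusted. The ferritin and iron genes had a median of 0.19 over 7 genes tested, the nuclear-retained RNAs of 0.29 over 3 and the imprinted genes of 0.67 over 4, each with 0 called. The medians moved with single experiments: without experiment 3 the ferritin and iron genes had 1.04 and the nuclear-retained RNAs 0.79, and without experiment 6 the imprinted genes had −2.01.

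Some genes were found nearly only in certain experiments, at both positions. 4930438A08Rik had 2, 16, 11228, 22 and 5555 reads in the proximal and 1, 15, 8116, 32 and 6107 in the distal sums of experiments 2 to 6, which follows the pattern of Aebp2 and Cracr2a. Cells of 1 plate row or column were more alike than others: mean r in experiment 3 was 0.476 for a shared row, 0.491 for a shared column and 0.370 for neither. Sisters in neighboring wells had a mean r of 0.504 there. Across the marks, cells of the same barcode were less alike than others in 8 of 41 pairs of experiments. They were more alike in all the rest, by over 0.1 in r in 3. The differences ranged from −0.108 (H3K4me3 experiment 4 with H3K27me3 experiment 1) to 0.176 (H3K4me3 experiment 5 with H3K27me3 experiment 4). The cause of this likeness was not tested.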
